A study of Mus musculus with 28 samples.

Results

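Proteasome subunit genes were taken as those whose symbol is Psm, a letter from a to g and digits, and which were named at a promoter-class peak of H3K27ac, the acetylation of lysine 27 on histone H3 that marks active promoters and enhancers. There were 48 such genes among the 15868 genes named at promoter-class peaks, and 634 of the 173030 promoter-class peaks named them. A promoter-class peak is one that the authors' tables place at the start of a transcript, alone or with a neighbouring gene, and 8 of the 48 genes (Psma2, Psma4, Psma7, Psmb5, Psmb9, Psmd13, Psme2 and Psmg2) always shared their peak with a neighbour.

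The study profiled germ cells from testes of C57BL/6 mice by ChIPmentation, in which a transposase inserts the sequencing adapters into immunoprecipitated chromatin. Spermatogonia of postnatal day 7 mice, sorted as Thy1+ or c-Kit+ cells, were either wild type (WT) or Scml2-KO (KO), lacking a Polycomb-associated protein of the germline. Pachytene spermatocytes (PS) and round spermatids (RS) came from adult Scml2-KO mice, and H3K27ac libraries of WT PS and RS were not analysed here. Each of the 6 H3K27ac groups had 2 replicates, 12 libraries in all, and 16 input libraries without immunoprecipitation covered 8 groups. Age, cell stage and method of isolation (sedimentation or magnetic beads) went together, and PS and RS were KO only, so effects of these cannot be told apart in any comparison of adult with spermatogonial cells. The labels do not say that replicates were separate animals or cultures, so p-values measure the spread between these libraries, which may be technical. Tests of adult against spermatogonial KO libraries pooled PS with RS and Thy1+ with c-Kit+, with no term for the pooled groups. Their SEs and p-values therefore also take in differences between those groups.

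The proteasome is the protease that degrades ubiquitin-tagged proteins. Its 20S core is a barrel of alpha rings, which form the gates, and beta rings, which hold the catalytic sites, and the 19S particle at its ends recognises ubiquitin, unfolds the substrate with ATPases and feeds it in. Germ cells from meiosis onward use PSMA8, an alpha subunit that stands in for PSMA7, and interferon-exposed and immune cells exchange the catalytic subunits PSMB5, PSMB6 and PSMB7 for PSMB8, PSMB9 and PSMB10, forming the immunoproteasome.

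Each value below is the authors' fold enrichment, the height of the signal at a peak's highest summit over the library's background. Relative level means log2 fold enrichment minus the library's median over the 9239 regions called in all 12 H3K27ac libraries. Sequencing depth is unknown. The H3K27ac libraries held 17877 to 73316 peaks and the inputs 359 to 1192, and background height was 0.564 to 1.62 in the H3K27ac libraries. The adult libraries held 63322 to 73316 peaks and the spermatogonial ones 17877 to 36362. Markers fitted the labels in part. Of 7 genes listed for adult stages, Piwil1, Pgk2, Prm1, Tnp1 and Acrv1 had promoter peaks in the 4 adult libraries and in none of the 8 spermatogonial ones, but Hspa2 also had them in all 8 and Sycp3 in some. Of 6 genes listed for spermatogonia, Etv5, Kit and Zbtb16 were called in all 4 adult libraries too, Zbtb16 and Kit were missing in some spermatogonial ones, Dmrtb1 was called in adult libraries only, Stra8 in few libraries and Gfra1 in 1. Loss of Scml2 cannot be read from histone acetylation, so the genotype labels were not tested.

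Promoter sequences, upstream of the transcription start, are shown for genes whose acetylation the results turn on: Psmb8 and Psmb9, which lie close together in the major histocompatibility complex and differed in how often they were called, and 4 genes from different parts of the particle whose promoters carry an ETS motif, found in 12 genes of the family. They are from RefSeq on GRCm38.p6, 250 bases each, written 5′ to 3′ on the gene's strand. Capitals mark a gamma-activated site (TTCNNNGAA) in Psmb8, a GC box (GGGCGG) and a CCAAT box in Psmb9, and the ETS core CCGGAAG in the others, on either strand.
Psmb8, chr17:34197945-34198194, + strand: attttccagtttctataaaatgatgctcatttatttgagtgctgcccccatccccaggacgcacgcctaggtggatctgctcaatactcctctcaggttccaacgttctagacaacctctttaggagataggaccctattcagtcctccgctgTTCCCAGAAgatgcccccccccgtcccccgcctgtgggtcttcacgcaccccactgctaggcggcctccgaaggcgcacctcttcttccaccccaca
Psmb9, chr17:34187331-34187580, - strand: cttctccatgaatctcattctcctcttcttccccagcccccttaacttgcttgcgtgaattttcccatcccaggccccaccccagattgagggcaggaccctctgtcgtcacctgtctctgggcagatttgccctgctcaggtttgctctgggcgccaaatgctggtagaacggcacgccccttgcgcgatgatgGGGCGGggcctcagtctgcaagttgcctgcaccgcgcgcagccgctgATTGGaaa
Psma6, chr12:55398575-55398824, + strand: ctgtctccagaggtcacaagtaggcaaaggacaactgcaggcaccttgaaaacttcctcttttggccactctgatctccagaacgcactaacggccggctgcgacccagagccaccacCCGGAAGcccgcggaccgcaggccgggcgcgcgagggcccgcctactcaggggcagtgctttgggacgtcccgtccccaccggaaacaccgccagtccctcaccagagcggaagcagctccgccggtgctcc
Psmc1, chr12:100109952-100110201, + strand: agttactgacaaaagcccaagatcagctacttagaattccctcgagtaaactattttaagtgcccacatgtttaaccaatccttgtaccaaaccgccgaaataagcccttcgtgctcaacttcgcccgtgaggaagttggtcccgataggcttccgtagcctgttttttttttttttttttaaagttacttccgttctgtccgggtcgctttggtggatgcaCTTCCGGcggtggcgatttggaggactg
Psmd6, chr14:14120946-14121195, - strand: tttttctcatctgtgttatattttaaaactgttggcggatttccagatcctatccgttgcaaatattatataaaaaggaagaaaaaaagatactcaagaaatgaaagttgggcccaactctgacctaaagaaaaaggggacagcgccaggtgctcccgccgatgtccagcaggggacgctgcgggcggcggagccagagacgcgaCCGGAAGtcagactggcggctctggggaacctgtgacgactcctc
Psme4, chr11:30771525-30771774, + strand: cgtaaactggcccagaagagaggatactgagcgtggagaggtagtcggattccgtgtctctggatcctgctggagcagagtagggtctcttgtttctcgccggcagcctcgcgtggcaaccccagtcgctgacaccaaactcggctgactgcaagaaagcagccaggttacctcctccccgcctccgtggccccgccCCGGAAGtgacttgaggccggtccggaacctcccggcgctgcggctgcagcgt

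Of the 48 genes, 40 matched a RefSeq promoter, giving 43 promoters, and both strands of the 250 upstream bases were searched. CCGGAAG was found in 13 of 43 (30.2%), against 6.91% of all 32851 promoters and 16% of the 8906 promoters of genes with a promoter peak in all 12 libraries. The 12 genes with this motif were Psma6, Psmc1, Psmc2, Psmc6, Psmd2, Psmd4, Psmd6, Psmd11, Psmd12, Psme3, Psme4 and Psmg1. The GC box was in 53.5% of the proteasome promoters (32.7% of all and 61.9% of the acetylated ones), CCAAT in 32.6% (33.8% and 35.4%), and TGACNNNGC, the core of the antioxidant response element, in 11.6% (10.2% and 12.3%). The interferon-stimulated response element, searched as GAAA, any 2 bases and GAAA, was in 3 promoters, those of Psmb3, Psmd4 and Psmd9 (6.98%, against 2.98% and 2.28%), and in none of the promoters of Psmb8, Psmb9 and Psmb10. TTCNNNGAA was in the promoters of Psmb8, 97 bases before the start, and Psmg1 (4.65%, against 7.02% and 5.79%). The nuclear respiratory factor palindrome was in that of Psma2 only (2.33%, against 0.782% and 2.03%), and TGACGTCA, the cAMP response element, was in none (1.55% and 3.20%). The CCAAT and GC boxes printed for Psmb9 do not overlap. The proteasome promoters held a median of 14 CpG dinucleotides, between the median of all promoters (6) and that of the acetylated ones (18). A match describes letters in this window and shows no binding.

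Acetylation of proteasome promoters was common to all stages. Of the 48 genes, 42 (87.5%) had a promoter peak in all 12 libraries, against 9350 of 15868 genes (58.9%), and each library called 42 to 47 of them. No input library had a promoter-class peak at any. The median proteasome gene ranked between percentiles 63.0 and 76.3 of promoter-acetylated genes in each library. All 7 constitutive alpha genes (Psma1 to Psma7), all 7 constitutive beta genes (Psmb1 to Psmb7), all 11 non-ATPase genes of the 19S particle and all 4 activator genes (Psme1 to Psme4) were called throughout. The exceptions were Psma8, Psmb8, the thymus-specific catalytic gene Psmb11, the ATPase gene Psmc1, the assembly chaperone Psmd10 and the inhibitor Psmf1.

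**Figure D1:**
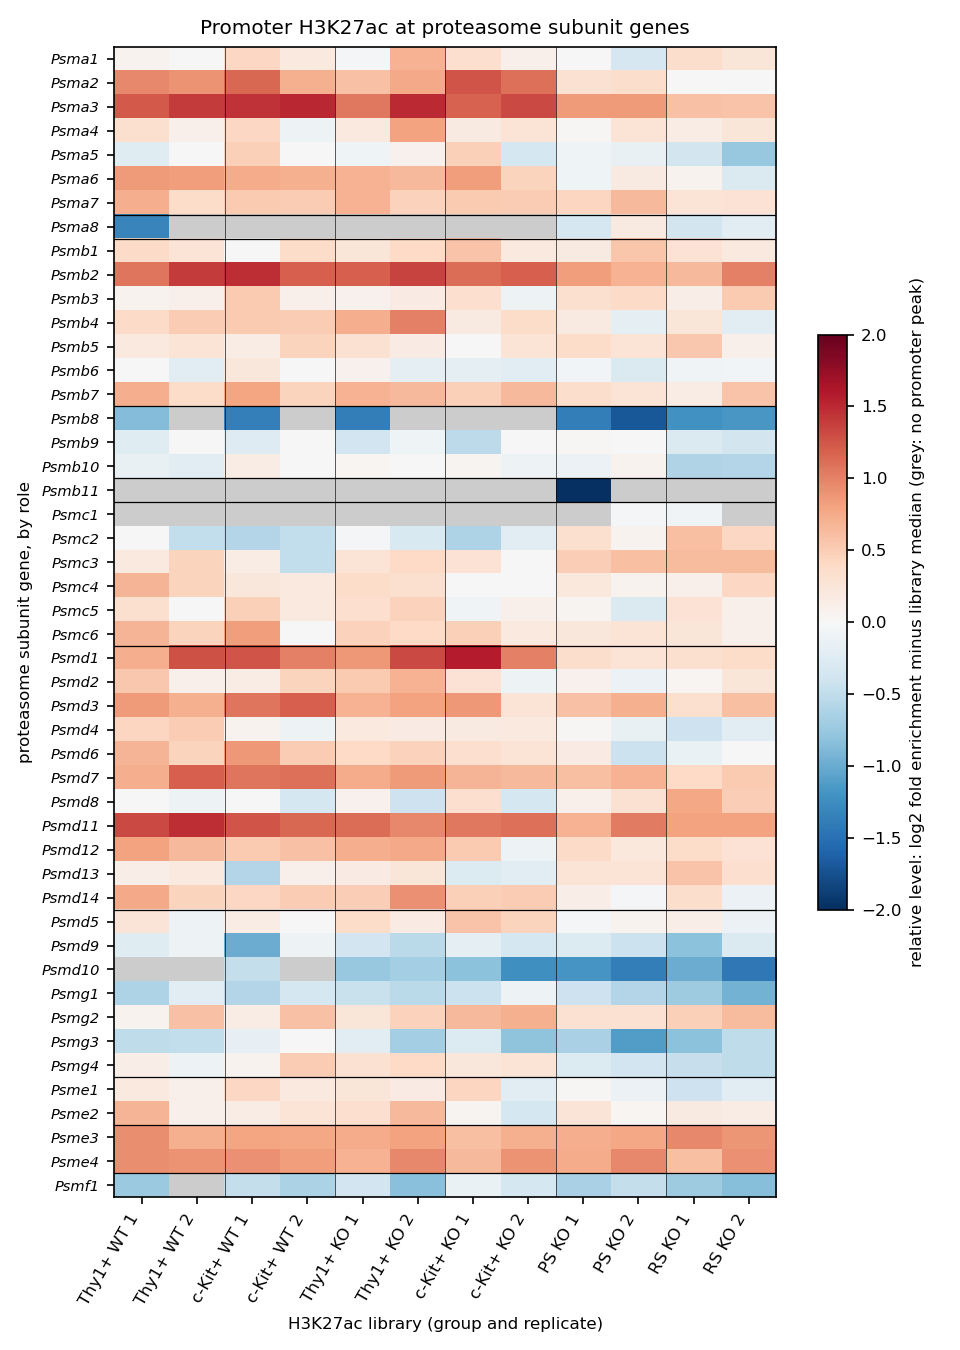
Relative level of promoter H3K27ac (log2 fold enrichment minus the library median, colour) for the 48 proteasome subunit genes (rows, by role, separated by lines) in the 12 H3K27ac libraries (columns), with grey for libraries without a promoter-class peak. Psma8 is coloured in the 4 adult libraries and 1 of the 8 spermatogonial ones, while 42 rows have no grey cell.

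Levels differed widely between subunits. Psma3, Psmb2, Psmd1 and Psmd11 were the strongest, with median relative levels of 1.20, 1.16, 0.93 and 1.08, and Psma3 lay at or above percentile 84.7 in every library. Psma3 is an alpha and Psmb2 a non-catalytic beta subunit, while Psmd1 is the large scaffold of the 19S base and Psmd11 part of the 19S lid. Among genes called in all 12 libraries, the chaperones Psmg3 and Psmg1 were the lowest, at median relative levels of -0.51 and -0.49. In the group medians by role, the assembly chaperones ranged from -0.51 in RS KO to 0.00 in c-Kit+ WT, below the alpha genes (0.20 in RS KO to 0.67 in Thy1+ KO) and the beta genes (0.22 in RS KO to 0.44 in c-Kit+ WT).

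Psma8 (chr18:14706135-14762301) was called in all 4 adult libraries and had no promoter peak in 7 of the 8 spermatogonial ones. Adult libraries named 13683 to 14443 genes at promoter-class peaks and spermatogonial ones 10572 to 12896. The share of all genes with the call pattern of Psma8 was not counted. In the remaining spermatogonial library, Thy1+ WT replicate 1, the fold enrichment of Psma8 was 4.19 over a peak of 197 bp, close to that library's lowest called value of 3.67. In PS KO the fold enrichment was 15.6 and 23.5 (19.5 ± 5.53, SD, n = 2) and in RS KO it was 13.3 and 12.4 (12.9 ± 0.606, SD, n = 2). In fold enrichment both PS libraries lay above both RS libraries, and all 4 adult libraries above the single spermatogonial call. In relative level PS and RS overlapped (-0.34 and 0.17 against -0.37 and -0.23). In PS KO the peak spanned 1914 and 2031 bp around the start, whereas in RS KO the main peak covered 1079 and 982 bp with a smaller separate peak upstream of it (fold enrichment 3.91 and 4.87). Psma8 ranked between percentiles 43.8 and 67.9 of promoter-acetylated genes in the adult libraries.

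**Figure D2:**
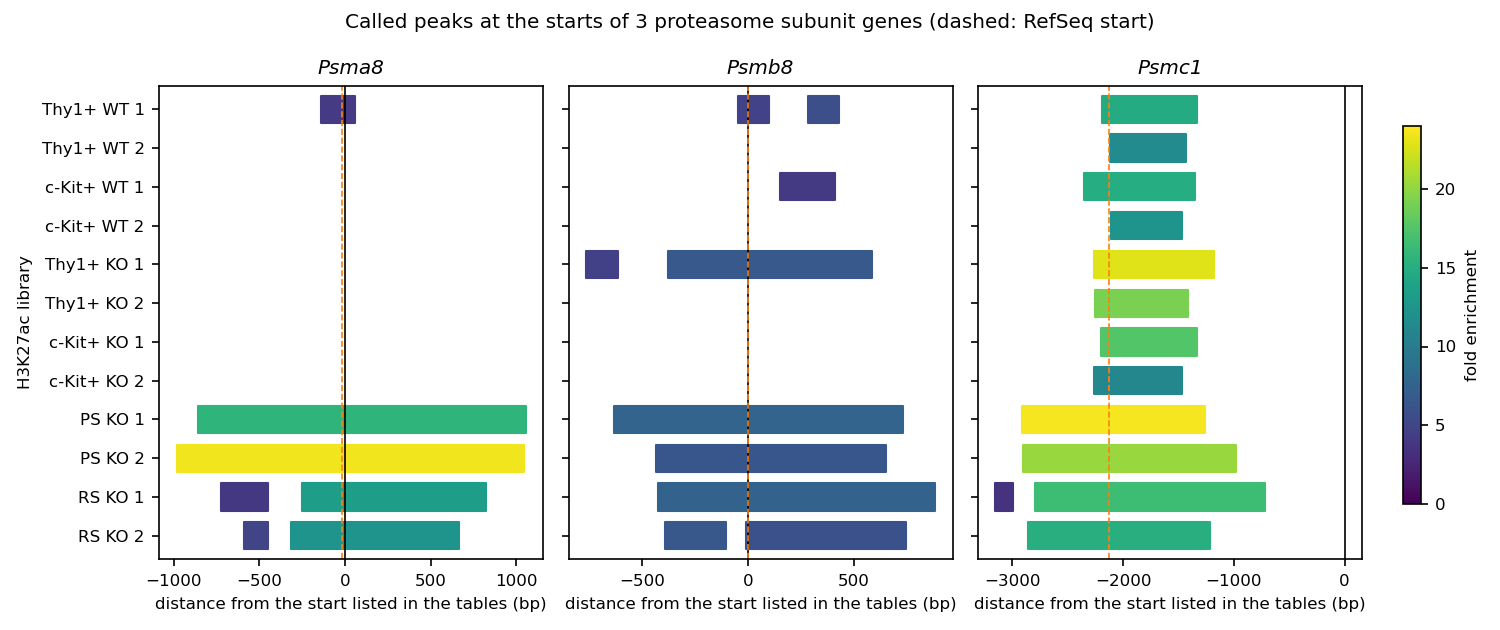
Called peaks (bars, coloured by fold enrichment) in the 12 H3K27ac libraries at Psma8, Psmb8 and Psmc1, by distance in bp from the start listed in the authors' tables, with the gene running to the right and the RefSeq start dashed. Psma8 has bars of 1914 and 2031 bp in PS KO and 1 short bar of 197 bp in a spermatogonial library, and the Psmc1 bars lie near its RefSeq start, 2129 bp from the listed one.

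Psma7, whose product PSMA8 replaces, was called at every stage. Its fold enrichment was 17.3 and 10.9 in Thy1+ WT, 14.8 and 12.4 in c-Kit+ WT, 27.8 and 14.1 in Thy1+ KO, and 15.6 and 11.7 in c-Kit+ KO. It was 26.7 and 32.5 in PS KO and 20.7 and 17.9 in RS KO. Psma7 was above Psma8 in each of the 5 libraries that called Psma8, and in the adult ones Psma8 minus Psma7 was -0.77 to -0.47 on the log2 scale. None of the 4 spermatogonial KO libraries called Psma8, so a comparison of levels with the adult KO libraries restates the calls. With those 4 set at their library's lowest called fold enrichment, the relative level of Psma8 was 1.47 log2 units higher in the adult libraries, and 1.60 higher relative to Psma7. At a fold enrichment of 1 in place of the lowest called value these became 3.29 and 3.43, so both sizes are set by the value put in, and no p is given for them. From PS KO to RS KO, where Psma8 was called in all 4 libraries, the change was -0.38 (SE 0.227, limma adjusted p = 0.273). It became -0.60 (limma adjusted p = 0.0352) in the fit of the larger set of regions that the substitution brings in. In that fit 34.4% of promoter regions passed (3717 lower and 1106 higher), as did 15 of 47 proteasome genes, all lower. The median change of the proteasome genes went from -0.16 to -0.38 between the fits. In bulk samples, a difference in the share of cells carrying the mark and a difference in signal per cell cannot be told apart.

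The 3 immunoproteasome genes did not share one pattern. Psmb8 (chr17:34198195-34201454) was called in 7 libraries, Psmb9 (chr17:34182030-34187330) and Psmb10 (chr8:105935728-105938392) in all 12. Psmb8 had a fold enrichment of 5.76 in Thy1+ WT replicate 1, 3.99 in c-Kit+ WT replicate 1 and 6.58 in Thy1+ KO replicate 1, with no peak in the second replicate of those groups or in either c-Kit+ KO library. It was 7.63 and 6.4 in PS KO and 7.43 and 6.49 in RS KO. In the libraries where it was called, Psmb8 stayed at or below percentile 20.3 of promoter-acetylated genes, and every spermatogonial call was in a replicate 1 library, which had the higher background height in all 6 groups.

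Psmb5, the constitutive counterpart of Psmb8, had a fold enrichment of 12.1 and 10.3 in Thy1+ WT, 11.4 and 11.8 in c-Kit+ WT, 21.3 and 11.5 in Thy1+ KO, and 10.9 and 9.91 in c-Kit+ KO. It was 25.5 and 25.1 in PS KO and 25 and 15.7 in RS KO, so Psmb5 was above Psmb8 in every library. Psmb8 minus Psmb5 differed by -0.06 log2 units between adult and spermatogonial KO libraries, but 3 of the 4 spermatogonial KO values were the library's lowest called fold enrichment. With a fold enrichment of 1 in their place the difference was 1.31. Its size thus depends on the value put in, and no p is given for it.

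Psmb9 shares its promoter with Tap1, a peptide transporter of antigen presentation, and the peaks named both genes. Its fold enrichment was 8.91 and 8.45 in Thy1+ WT, 8.55 and 8.68 in c-Kit+ WT, 13.2 and 9.59 in Thy1+ KO, and 7.57 and 8.16 in c-Kit+ KO. It was 20.2 and 20.8 in PS KO and 14.1 and 11.4 in RS KO. Both PS libraries were the highest of all 12. Its constitutive counterpart Psmb6 also had its highest mean fold enrichment in PS KO (18.1), though the PS KO and Thy1+ KO libraries overlapped. In mean relative level Psmb9 was highest in PS KO (0.01), whereas Psmb6 was at -0.17 there and 0.11 in c-Kit+ WT.

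Psmb6 had a fold enrichment of 10.5 and 7.24 in Thy1+ WT, 12 and 8.68 in c-Kit+ WT, 18.2 and 8.95 in Thy1+ KO, and 9.46 and 7.00 in c-Kit+ KO. It was 19.1 and 17.1 in PS KO and 16.4 and 14.1 in RS KO. Psmb9 minus Psmb6 was 0.08 log2 units higher in adult than in spermatogonial KO libraries (exact permutation p = 0.657, adjusted 0.893). The adjustment was Benjamini-Hochberg over 5 such tests, which include those of Psma8 and Psmb8 whose p is not given. In Thy1+ KO and c-Kit+ KO the replicates had opposite signs.

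Psmb10 had a fold enrichment of 9.43 and 7.24 in Thy1+ WT, 11.4 and 8.68 in c-Kit+ WT, 17.7 and 10.2 in Thy1+ KO, and 11.3 and 7.58 in c-Kit+ KO. It was 18.3 and 21.9 in PS KO and 11.3 and 9.74 in RS KO, so both RS libraries lay below both PS libraries. Psmb10 was lower in RS KO than in PS KO by a log2 change of -0.73 (SE 0.194, limma adjusted p = 0.0278), the only one of 47 proteasome genes tested (2.13%) that passed, while 10.1% of promoter regions did, 5.33% lower and 4.74% higher (20.2% of all regions, 7.79% lower and 12.4% higher). Psmb9 (-0.50, SE 0.189, limma adjusted p = 0.0913) and Psmb8 (0.19, SE 0.204, adjusted p = 0.568) did not pass. The Psmb10 call was lost with the libraries centred on promoter regions (-0.57, adjusted p = 0.0678) and on leaving out PS KO replicate 2 (-0.74), RS KO replicate 1 (-0.71) or RS KO replicate 2 (-0.80). Sertoli and Leydig markers were also lower in RS KO than in PS KO: Amh had fold enrichments of 10.7 and 19.7 in PS KO and 7.82 and 5.41 in RS KO, and Star 10.7 and 11.2 against 4.30 and 5.41. Their part in the Psmb10 change was not tested.

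Psmb7, which Psmb10 replaces, had a fold enrichment of 17.3 and 10.9 in Thy1+ WT, 17.7 and 11.8 in c-Kit+ WT, 27.8 and 16 in Thy1+ KO, and 15.1 and 12.8 in c-Kit+ KO. It was 25.2 and 25.1 in PS KO and 19.2 and 21.6 in RS KO, above Psmb10 in every library. Psmb10 minus Psmb7 differed by -0.02 log2 units between adult and spermatogonial KO libraries (exact permutation p = 0.943, adjusted 0.943). For neither Psmb9 and Psmb6 nor Psmb10 and Psmb7 did the adult and spermatogonial KO libraries separate. The adult group pools PS KO with RS KO, and in both pairs the PS KO values lay above the RS KO ones. How often other gene pairs separate in this way was not counted. Psmb9 minus Psmb6 was 0.08 and 0.29 in PS KO against -0.22 and -0.31 in RS KO. Psmb10 minus Psmb7 was -0.46 and -0.20 against -0.76 and -1.15. These differences between PS and RS in the pairs were not tested.

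Psmb11, the catalytic subunit of cortical thymic epithelium, was called once, in PS KO replicate 1 at 3.81, at percentile 2.46 of that library's promoter genes. Leukocyte markers were not level across the groups. Of 7 markers (Ptprc, Cd68, Adgre1, Csf1r, Cd74, H2-Aa and Lyz2), 6 had promoter peaks in both RS KO libraries, with summed fold enrichments of 49.3 and 44.4. The counts were 1 and 2 in PS KO and in Thy1+ KO (summed 4.80 and 9.15 in PS KO, 4.48 and 10.6 in Thy1+ KO), and none in c-Kit+ KO or any WT library. Adgre1 had no peak in any library. The highest fold enrichments of Psmb8, Psmb9 and Psmb10, which are not centred, were in PS KO. In mean relative level Psmb8 was highest in Thy1+ WT (-0.86, from 1 library), Psmb9 in PS KO (0.01) and Psmb10 in c-Kit+ WT (0.08). From PS KO to RS KO these means went from -1.54 to -1.19, 0.01 to -0.33 and -0.02 to -0.59. The part of the leukocyte markers in the values of these 3 genes was not tested.

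**Figure D3:**
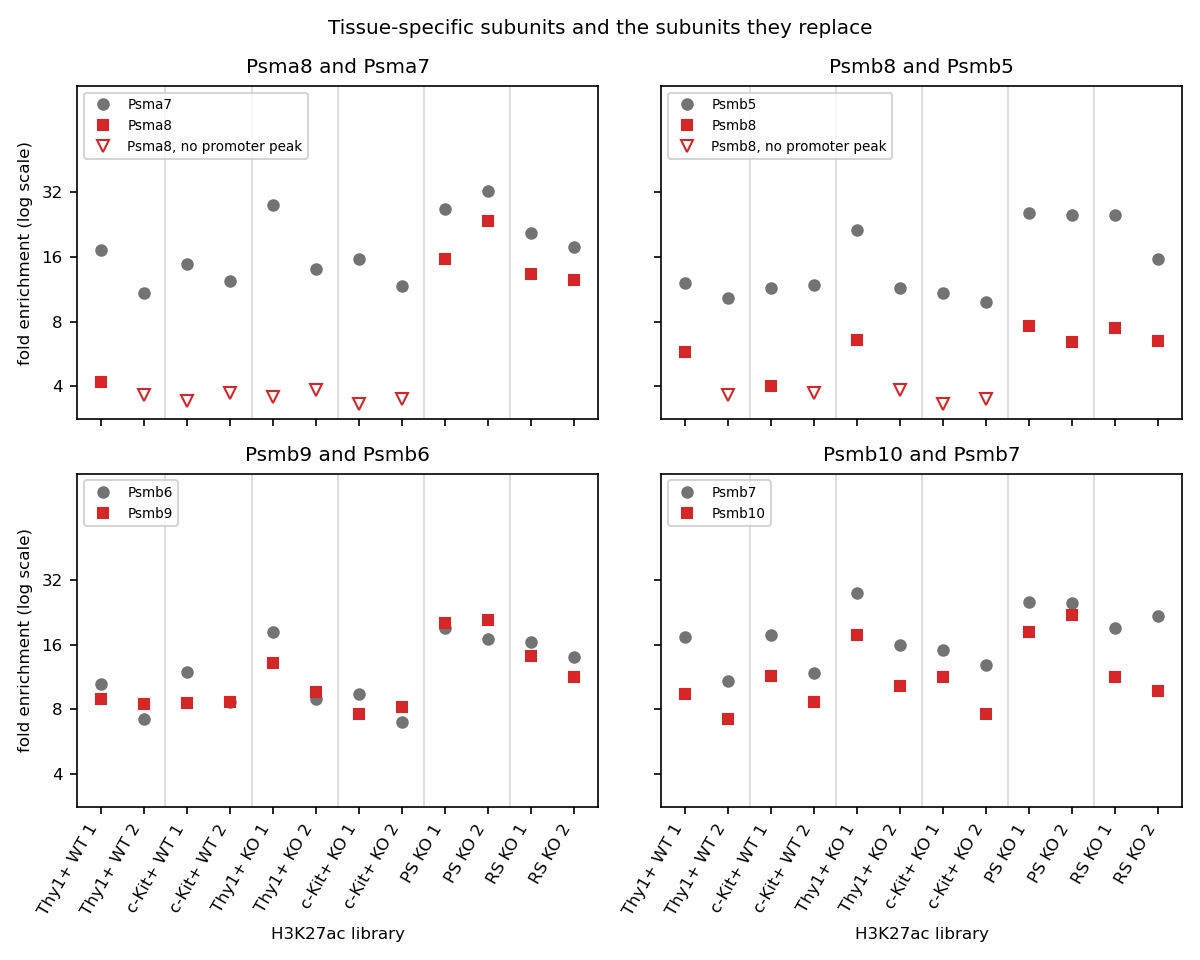
Fold enrichment (log axis) in each of the 12 H3K27ac libraries for Psma8 and the 3 immunoproteasome genes (red squares) and the subunits they replace (grey circles), with open triangles at the lowest called value of a library where the gene had no promoter peak. Psma8 appears at 12.4 to 23.5 in the adult libraries, and Psmb9 minus Psmb6 is between -0.49 and 0.29 on the log2 scale.

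Among antigen-presentation and interferon genes read beside the immunoproteasome, B2m, Irf1, Tap1, Tap2 and Tapbp had a promoter peak in every library and Nlrc5 had none in any. In adult against spermatogonial KO libraries Tapbp and Irf1 passed the test, and B2m, Tap1 and Tap2 did not. Tapbp, a chaperone of peptide loading, was higher by 0.68 (SE 0.192, limma adjusted p = 0.0164). Its fold enrichments, which are not centred, were 33.6, 31.5, 23.9 and 24.3 in the adult libraries against 22.8, 10.9, 7.09 and 8.16 in the spermatogonial KO ones. In relative level the ranges were 0.47 to 0.76 and -0.62 to 0.40. The share of regions that separate in this way was not counted. Irf1, a transcription factor of the interferon response, fell by 0.68 relative to the median region (SE 0.190, limma adjusted p = 0.0161), with groups that overlapped, and changed by 0.00053 without centring.

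Psme1 and Psme2 encode the interferon-inducible PA28 cap, Psme3 its nuclear relative, and Psme4 the PA200 activator that acts in the removal of acetylated histones in spermatids. Psme1 had a fold enrichment of 12.1 and 9.05 in Thy1+ WT, 13.7 and 9.92 in c-Kit+ WT, 20.3 and 11.5 in Thy1+ KO, 14.7 and 7.00 in c-Kit+ KO, 20.2 and 19.2 in PS KO, and 12.9 and 12.4 in RS KO. Psme2, whose peaks also named Rnf31, had 16.8 and 9.05, 11.4 and 10.5, 21.8 and 16, 11.3 and 6.41, 23.6 and 21.3, and 19.6 and 16.2 in the same order. Psme4 had 19.9 and 15.7, 19.4 and 15.5, 27.8 and 19.8, 17.0 and 15.2, 33.2 and 40.5, and 26.2 and 27.6. Psme4 was highest in PS KO in fold enrichment only. Its mean relative level there, 0.85, was below that in Thy1+ WT (0.91) and c-Kit+ WT (0.88). Over all 12 libraries the relative level was 0.61 to 0.96 for Psme4 and 0.61 to 0.97 for Psme3. Psme3 and Psme4 ranked at percentiles 85.6 to 98.1 and 88.0 to 97.9 of promoter-acetylated genes, while Psme1 ranged from 38.6 to 79.2 and Psme2 from 31.4 to 85.7. In adult against spermatogonial KO libraries the log2 changes were -0.33 for Psme1, -0.01 for Psme2, 0.13 for Psme3 and 0.02 for Psme4, and none passed (limma adjusted p from 0.119 to 0.967). Psmf1, the inhibitor PI31, had a fold enrichment of 6.29 and no peak in Thy1+ WT, 7.41 and 5.58 in c-Kit+ WT, 13.2 and 5.76 in Thy1+ KO, 9.93 and 6.41 in c-Kit+ KO, 12.6 and 14.9 in PS KO, and 10.6 and 8.11 in RS KO. It stayed below the library median in every library that called it.

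Among the 19S genes, Psmc1 and Psmd10 lacked promoter calls. Psmc1, an ATPase of the base, was named at a promoter-class peak in PS KO replicate 2 (20.3) and RS KO replicate 1 (16.4) only. In the other 10 libraries a peak of the upstream class lay at or just downstream of the RefSeq start, which is 2129 bp upstream of the start listed in the tables. Its fold enrichments were 14.7 and 11.5 in Thy1+ WT, 14.8 and 12.4 in c-Kit+ WT, 22.8 and 19.2 in Thy1+ KO, and 17.5 and 11.1 in c-Kit+ KO. The upstream-class value was 23.6 in PS KO replicate 1 and 15.1 in RS KO replicate 2. Psmc1 thus had a peak at or just downstream of its RefSeq start in all 12 libraries. In Thy1+ WT replicate 2 and c-Kit+ WT replicate 2 the peak began at 100110218 and 100110219, past the RefSeq start at 100110202. Those peaks did not overlap the promoter printed above. Psmd10 (gankyrin), the only X-linked member, had no peak in either Thy1+ WT library and was called in c-Kit+ WT replicate 1 (7.41) but not replicate 2. It had 10.1 and 6.4 in Thy1+ KO, 6.15 and 3.5 in c-Kit+ KO, 8.77 and 8.00 in PS KO, and 8.61 and 5.41 in RS KO. Its relative level in the adult libraries, -1.43 to -1.0, overlapped that in spermatogonial libraries with a call, -1.22 to -0.47, and its adult against spermatogonial KO change did not pass.

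In adult against spermatogonial KO libraries, 12 of 45 proteasome genes tested (26.7%) were lower and 0 higher at a limma adjusted p under 0.05, while 30.3% of promoter regions passed, 19.7% lower and 10.6% higher (32.3% of all regions, 22.4% lower and 9.85% higher). The share of proteasome genes was near that background. Their median change was -0.20, beside -0.08 over 8716 promoter regions. The 3 not tested were Psma8, Psmb8 and Psmb11, which lacked a peak in a library. Of 4 listed Sertoli cell markers, 4 had promoter peaks in both PS KO libraries (summed fold enrichment 34.3 and 46.4), 2 in both RS KO libraries (11.7 and 8.66) and 0 to 3 in the spermatogonial KO libraries (0 to 14.2). Of 3 Leydig cell markers, 3 were called in both PS KO libraries (22.5 and 25.1), 1 in each RS KO library (4.30 and 5.41) and 0 to 3 in the spermatogonial KO libraries (0 to 16.6). Of 2 peritubular myoid cell markers (Acta2 and Myh11), 1 was called in PS KO replicate 2 (4.80) and 0 in the other adult libraries. In the spermatogonial KO libraries 0 to 2 were called (0 to 17.7). These sums are not centred, and the library medians were 8.16 to 17.2 in the spermatogonial KO libraries and 14.6 to 20.8 in the adult ones. The part of these and of the leukocyte markers in the adult and spermatogonial values was not tested. The 12 were Psma2, Psma3 and Psma6 (3 of 7 alpha genes), Psmb2 and Psmb4 (2 of 7 constitutive beta genes), Psmc1 (1 of 6 ATPases), Psmd1, Psmd4, Psmd6 and Psmd14 (4 of 11 non-ATPase genes), and Psmd5 and Psmg4 (2 of 7 chaperones). The direction depended on centring for most of these 12 genes. Centring lowered the median change over all regions by 0.68, and without it 41 of 45 proteasome changes were above 0. Without it 10 genes passed as higher and none as lower. Psmd1, Psma2 and Psmg4 stayed below 0 without centring but did not pass. Under quantile normalization 8 passed as lower and 1, Psmc3, as higher. Without PS KO replicate 2, 6 passed (Psma2, Psma3, Psma6, Psmc1, Psmd1 and Psmg4), and with uncalled libraries filled in at their lowest fold enrichment only Psma8 did, as higher, all its spermatogonial values being filled in.

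Psmd1 fell by 0.86 relative to the median region (SE 0.155, limma adjusted p = 0.00145). Its fold enrichment was 31.4 and 25.6 in Thy1+ KO, 32.2 and 16.3 in c-Kit+ KO, 25.2 and 25.1 in PS KO, and 21.5 and 18.9 in RS KO, beside 17.3 and 20.5 in Thy1+ WT and 24.5 and 17.4 in c-Kit+ WT. The fold enrichments of adult and spermatogonial KO libraries thus overlapped, but the relative levels did not (0.27 to 0.37 against 0.87 to 1.56). Psma2, an alpha subunit whose peaks also named the mitochondrial ribosome gene Mrpl32, fell by 0.75 (SE 0.165, limma adjusted p = 0.00427). It had 25.8 and 17.3 in Thy1+ KO, 26.0 and 17.5 in c-Kit+ KO, 24.4 and 26.7 in PS KO, and 17.2 and 14.6 in RS KO, beside 20.4 and 15.7 in Thy1+ WT and 22.8 and 14.3 in c-Kit+ WT. Psmg4, a chaperone of 20S assembly, fell by 0.70 (SE 0.123, limma adjusted p = 0.00121). It had 21.3 and 13.4 in Thy1+ KO, 12.8 and 9.91 in c-Kit+ KO, 16.4 and 16 in PS KO, and 12.5 and 10.3 in RS KO, beside 11.5 and 7.84 in Thy1+ WT and 10.8 and 12.4 in c-Kit+ WT. Without centring these 3 changes were -0.18, -0.08 and -0.02 and did not pass. At the upper end, without passing, were Psmd8 at 0.51 (adjusted p = 0.0537), Psmd13 at 0.39 (adjusted p = 0.0694) and Psmc3 at 0.36 (adjusted p = 0.0504).

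**Figure D4:**
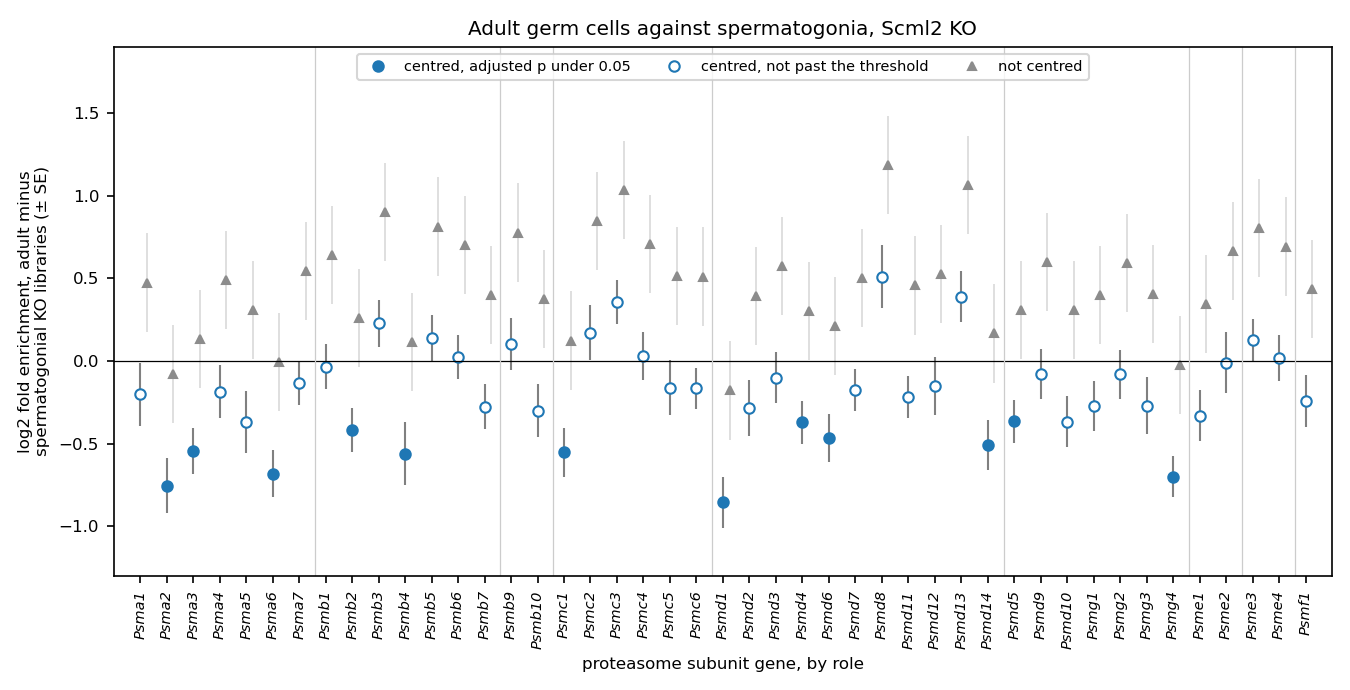
Log2 difference in fold enrichment, adult (PS and RS) minus spermatogonial KO libraries, with its standard error, for the 45 proteasome genes tested, by role. Circles are centred on the library medians and filled where the adjusted p was under 0.05 (12 genes, all below 0), and grey triangles are not centred, with 41 of 45 above 0.

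The step from c-Kit+ KO to PS KO, with 2 libraries a group, gave 4 calls among 45 proteasome genes (8.89%), while 23.4% of promoter regions passed, 15.2% lower and 8.21% higher (31.9% of all regions, 25.1% lower and 6.83% higher). Psmd1 (-0.94, SE 0.223, limma adjusted p = 0.00637), Psma2 (-0.82, adjusted p = 0.00618) and Psmg4 (-0.55, adjusted p = 0.0400) were lower in PS. Psmd13, a lid subunit whose peaks also named Sirt3, was higher by 0.55 (SE 0.188, adjusted p = 0.0386). Its fold enrichment was 8.99 and 7.00 in c-Kit+ KO and 24 and 25.1 in PS KO, beside 11.5 and 9.65 in Thy1+ WT, 6.84 and 9.30 in c-Kit+ WT, 19.2 and 12.2 in Thy1+ KO, and 25.4 and 18.4 in RS KO. No call held under quantile normalization, and without centring, which moved the median of all regions by 1.08, all 45 changes were above 0 and 41 passed. The Psmd13 and Psmg4 calls were lost with the replicate block, which left Psma2 and Psmd1, and the Psmd13 call was lost on leaving out any 1 of the 4 libraries. Without c-Kit+ KO replicate 1 the calls were Psma2, Psmc3, Psmd1 and Psmd8, without c-Kit+ KO replicate 2 there were 0, without PS KO replicate 1 only Psmd1, and without PS KO replicate 2 Psma2 and Psmd1. With uncalled libraries filled in at their lowest fold enrichment, Psma8, whose c-Kit+ values are then all filled in, and Psmb9 passed as higher. The summed fold enrichment of the Sertoli markers was 12.8 and 0 in c-Kit+ KO, from 3 and 0 genes called. That of the Leydig markers was 16.6 and 5.83, from 3 and 1. All lay below the PS KO values given above, but the sums are not centred on the library medians. In the centred fit 1 Sertoli marker, Amh, and 1 Leydig marker, Star, were tested. Amh was higher in PS by 0.76 and passed, while Star changed by -0.15 and did not. Their part in this step was not tested.

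Within spermatogonia, no proteasome gene passed in any comparison. Between KO and WT, with population as a covariate, 0 of 42 genes passed the limma fit, beside 0% of 9585 regions. None had an unadjusted p under 0.05 (502 regions did), and the log2 changes ran from -0.32 (Psmd3) to 0.28 (Psmd5) with SEs of 0.144 to 0.184. Between c-Kit+ and Thy1+ cells, with genotype as a covariate, 0 of 42 passed, beside 1.09% of all regions (0.803% higher and 0.282% lower) and 0.863% of promoter regions (0.587% higher and 0.276% lower). Here 4 had an unadjusted p under 0.05: Psmc2 (0.50, limma adjusted p = 0.0890), Psmd13 (-0.40), Psme2 (-0.38) and Psmc4 (-0.32). For the genotype by population interaction 0 of 42 passed, beside 0% of regions. Only Psmb4 (-0.72, limma adjusted p = 0.998) had an unadjusted p under 0.05, as 453 regions did. The 6 genes not tested were those lacking a promoter-class call in a spermatogonial library. Psmc1 is among them, although each of these libraries had an upstream-class peak at or just downstream of its RefSeq start.

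Genes that act with the proteasome were read beside its subunits. Of 17 partner genes, listed as assembly factors, ubiquitin receptors and shuttles, 16 had a promoter peak in every library. In adult against spermatogonial KO libraries 1 of the 16 was higher and 5 were lower, beside 10.6% and 19.7% of promoter regions, with a median of -0.11. Pomp, the maturation factor of the 20S core, fell by 0.59 (SE 0.147, limma adjusted p = 0.00861). Its fold enrichments were 32.9, 23.7, 21.8 and 12.8 in the spermatogonial KO libraries and 22.9, 25.6, 22.3 and 21.1 in the adult ones. Shfm1, the small 19S lid subunit also named Sem1, fell by 0.54 and Zfand5, a stimulator of proteasome activity, by 0.50 (limma adjusted p = 0.0183 and 0.0111). Without centring these 3 changes were 0.086, 0.14 and 0.18 and did not pass, so their direction too is that of centring.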

How the data were processed

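H3K27ac ChIPmentation peaks of 12 libraries and peaks of 16 inputs were analysed, grouped by the sample titles. Per the submitters' processing notes, reads were processed with Bowtie and MACS2 on mm10; versions, filters and parameters are not given in the sources used here. Per the file headers, the deposited tables give for each summit the signal height (pileup), a fold enrichment (a ratio), −log10 p and −log10 q values, a location class and the nearest transcript, with 1 table per library, so replicates were not pooled. In these values the deposited fold enrichment equals (height + 1) / (background + 1) with 1 background per library, so no local or input control acts on it, and read depth is unknown.

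Where a peak had several summits the highest was used. Peaks sharing at least 1 bp across the compared libraries formed 1 region, and regions called in every library compared were tested on log2 fold enrichment, centred on each library's median, with limma 3.58.1 (R 4.3.3) and Benjamini-Hochberg adjustment over all regions. Changes are therefore relative to the median region. Outside the fits, a gene's value is its highest promoter-class summit. In the fits it is the highest summit of any class in a region where a promoter-class peak of a compared library names the gene. Psmc1 entered the fits with adult libraries in this way, largely through upstream-class peaks. Single genes and pairs were tested by 2-sided exact permutation (scipy 1.17.1, Python 3.11.15), with uncalled libraries at their lowest fold enrichment. Alternatives were another centring, quantile normalization, no centring, uncalled libraries filled in, a −log10 q of at least 5, peaks joined within 1000 bp, input regions left out, a replicate block, and leaving out each library. Scripts were tested on simulated data. Gene positions and promoter sequences are RefSeq on GRCm38.p6.

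The genes and lists were chosen with earlier results of these data known. Values in every library are given for Psma8, Psma7, Psmb5 to Psmb11, Psme1, Psme2, Psme4, genes not called in all 12 libraries, and up to 3 genes of largest change in each direction among those past the threshold per comparison; other genes are given as ranges and counts. A result for 1 gene listed beside the immunoproteasome, and the counts over that list, are not reported here.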

Additional observations from a re-analysis of the deposited data

Results flagged for a closer look

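Peaks naming proteasome genes were also found in the inputs, which enter no comparison above. There were 6, none of the promoter class. An intergenic peak near Psmd14 had a fold enrichment of 4.97 in the Thy1+ WT replicate 2 input. Peaks upstream of Psmc1 (starts 100099947 to 100100072 on chromosome 12) had 4.89 in the RS WT replicate 1 input, 5.66 in c-Kit+ KO replicate 2 and 5.94 in RS KO replicate 2. Peaks upstream of Psmb9 and Tap2 had 5.98 in the RS WT replicate 1 input and 4.88 in Thy1+ KO replicate 1. Their signal heights were 8 to 10.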

How the results depend on the processing

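Depth is unknown, each group had 2 libraries, and only peaks the authors called enter the fits. The choice of centring affects the direction of the adult comparisons and how many genes pass. Without centring, adult against spermatogonial KO changes turned positive for Psmb4 (0.12), Psmc1 (0.12), Psma3 (0.13), Psmd14 (0.17), Psmd6 (0.21), Psmb2 (0.26), Psmd4 (0.30) and Psmd5 (0.31), and c-Kit+ to PS changes for Psma2 (0.26), Psmd1 (0.13) and Psmg4 (0.53). The adult against spermatogonial split of all called regions went from 1013 higher and 2309 lower to 3783 and 61 without centring and to 1336 and 1352 under quantile normalization. From c-Kit+ to PS, 784 regions and 0 proteasome genes passed under quantile normalization, 8940 and 41 without centring, and 2013 regions at a −log10 q of at least 5. With uncalled libraries filled in, 2 proteasome genes passed there. From PS to RS, 0 proteasome genes passed when centred on promoter regions and 6 without centring; filling in uncalled libraries gave 21304 regions and 15 genes, and a −log10 q of at least 5 gave 1982 regions. For adult against spermatogonial cells, filling in gave 9236 regions and 1 gene. For c-Kit+ against Thy1+, the regions were 0 without centring, 564 with filling in, 18 at a −log10 q of at least 5 and 160 with input regions left out. Psmb8 minus Psmb5 turned to 1.31 with uncalled libraries at a fold enrichment of 1. The cause of these shifts was not tested.

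Leaving out 1 library at a time gave 0 to 4564 regions and 0 to 4 proteasome genes from c-Kit+ to PS, 0 to 3402 regions and 0 to 1 genes from PS to RS, 6 to 11 genes for adult against spermatogonial cells, and 9 to 178 regions for c-Kit+ against Thy1+. The lone library of a group is then assumed to vary like the other group. Psma8 stayed at 1.26 to 1.61 and Psma8 minus Psma7 at 1.35 to 1.76, while Psmb8 minus Psmb5 (-0.20 to 0.034), Psmb9 minus Psmb6 (-0.040 to 0.19) and Psmb10 minus Psmb7 (-0.17 to 0.15) crossed 0.

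Replicate numbers are not shown to pair the libraries: correlations of same-numbered deviations were 0.000391 (c-Kit+ to PS), 0.0412 (PS to RS), -0.00791 to 0.117 (adult against spermatogonial) and 0.0481 to 0.159 (within spermatogonia). With the replicate block, 2 proteasome genes passed from c-Kit+ to PS (Psma2 and Psmd1), 11 for adult against spermatogonial cells, and 206 regions for c-Kit+ against Thy1+. Psma8 (1.47) and Psma8 minus Psma7 (1.60) kept these values within the block, all spermatogonial KO values being filled in.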
